A study of Mus musculus with 8 samples.

Results

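The Notch genes examined were the receptors Notch1, Notch2, Notch3 and Notch4, the ligands Jag1, Jag2, Dll1 and Dll4, and the targets Hes1 and Hey1. They were taken by gene symbol, and all 10 were found among the 24063 genes of the deposited tables. RNA was sequenced from tubuloids, which are cultures of tubule-like structures that form in Matrigel from kidney fragments of postnatal mice (day 7 to 10 in the sample descriptions, and a younger range in the study's methods). Every culture carried the genotype Pkd2fl/fl Pax8rtTA TetOCre mTmG, that is, floxed Pkd2, a Pax8-driven reverse tetracycline transactivator, a Cre recombinase under its control, and a reporter that turns from red to green upon recombination. Doxycycline (DOX, 4 libraries) induced Cre, and dimethyl sulfoxide (DMSO, 4 libraries) was the vehicle, so the DMSO libraries had the same alleles without induction. The agents were given for 3 days from culture day 3, and RNA was extracted on day 7. The Pax8 promoter restricts Cre to epithelial cells, and recombination in these cultures was mosaic, so each DOX library mixed recombined and unrecombined cells.

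Notch signalling passes between touching cells. A ligand on one cell binds a receptor on its neighbour, ADAM proteases and gamma-secretase then cut the receptor, and the freed intracellular domain enters the nucleus and, with RBPJ, switches on target genes such as Hes1 and Hey1. In the developing kidney the pathway is known for patterning the nephron, and in the collecting duct for favouring principal over intercalated cells. Endothelial and mural cells also use it, with Dll4 and Notch4 known from endothelium and Notch3 from mural cells.

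The libraries held 63922677 to 102716313 transcript counts. Fewer genes had a count in DMSO 20 (13243) and DOX 19 (13599) than in the other 6 libraries (17054 to 17903). DMSO 15 and DOX 21 held 11823 and 11689 counts of Y-linked transcripts, against at most 7 in any other library. Pkd2, the targeted gene, had a mean normalised count of 6129.5 ± 1114 with DMSO and of 4946 ± 772 with DOX (SD, n = 4 per group), and the groups overlapped. Its log2 fold change of -0.31 had a 95% interval from -0.73 to 0.11, and a count over the whole transcript does not separate the floxed exons. Tubule epithelium markers summed to 661 to 2869 TPM (8 genes), mostly from keratins, Epcam and Cdh16, with Pax2 at only 0.649 to 4.84 TPM, whereas principal cell markers were mixed, with Aqp2 at most 0.0287 TPM, Fxyd4 at 4.44 to 306 TPM and Gata3 at 7.70 to 40.0 TPM. Nothing in the labels says whether the libraries of a group came from separate animals, so p-values measure the spread between these libraries only.

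None of the 10 Notch genes passed the test of DOX against DMSO. A gene was called where its adjusted p was 0.05 or less and its fold change 1.5 or more, and DESeq2 called 0 of 10, with 0 of 10 at an unadjusted p under 0.05. Over all genes the corresponding shares were 0.147% called and 4.67% at an unadjusted p under 0.05. edgeR and limma-voom likewise called 0 of 10, with 0 at an unadjusted p under 0.05. Each called 0% of all genes and put 3.06% (edgeR) and 3.07% (limma-voom) of 15562 at an unadjusted p under 0.05. In each of the 10 genes the DMSO and DOX ranges overlapped, where 2.71% of all genes had groups that did not. With DOX, 6 estimates were lower and 4 higher, and their median log2 fold change was -0.18, beside -0.07 over 19268 genes. The adjusted p was 0.999 for every one of the 10 genes with both DESeq2 and edgeR. How far a change can be limited differed from gene to gene, as the following values show.

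**Figure D1:**
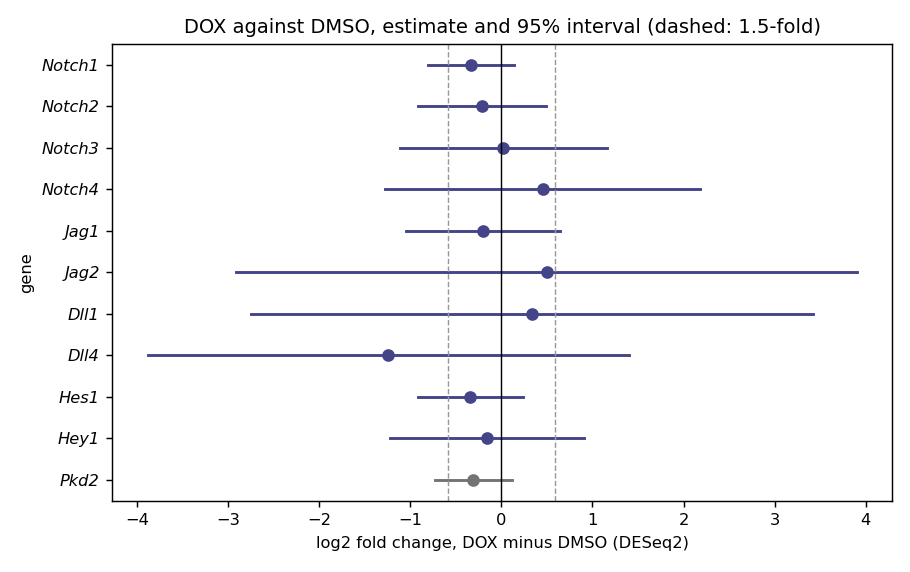
Log2 fold change of DOX over DMSO for the 10 Notch genes and Pkd2 (x axis), with points for the DESeq2 estimate, lines for its 95% interval and dashed lines at a 1.5-fold change. Every interval includes 0; Notch1 has the narrowest of the Notch genes (-0.80 to 0.14) and Jag2 the widest (-2.91 to 3.90).

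Among the receptors, Notch1 and Notch2 were present at a few TPM in every library. Notch1 (chromosome 2, 26457902 to 26503822, minus strand, mm10) had 1743, 1977, 1461 and 1697 normalised counts in DMSO 3, 5, 15 and 20, and 1575, 1671, 986 and 1233 in DOX 9, 12, 19 and 21. Its lowest libraries, DOX 19 and DOX 21, lay under all DMSO libraries, whereas DOX 9 and DOX 12 fell within the DMSO range. The log2 fold change was -0.33 (95% interval -0.80 to 0.14). Notch2 (chromosome 3, 98013538 to 98150367, plus strand) had 1784, 2099, 3347 and 2099 normalised counts in DMSO and 1743, 1988, 3057 and 1258 in DOX libraries, in the same order. The highest value of each group stood apart, in DMSO 15 and DOX 19, and the lowest was DOX 21. The log2 fold change of Notch2 was -0.21 (95% interval -0.92 to 0.49). It was 0.19 without DMSO 15 and DOX 21, and -0.53 without DMSO 20 and DOX 19.

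Notch3 and Notch4 varied more. Notch3 (chromosome 17, 32120820 to 32166896, minus strand) had 1204, 895, 706 and 301 normalised counts in DMSO and 491, 750.0, 1524 and 391 in DOX libraries. Its highest library was DOX 19 and its lowest DMSO 20, which are the libraries with the fewest detected genes. The log2 fold change was 0.02 (95% interval -1.11 to 1.16), and it was -0.76 without these libraries. Notch4 (chromosome 17, 34564286 to 34588543, plus strand) had 979, 504, 539.8 and 215 normalised counts in DMSO and 577, 1124, 35.0 and 1327 in DOX libraries. The DOX libraries held both the highest values, in DOX 12 and DOX 21, and by far the lowest, in DOX 19, where 31 reads were counted. Notch4 differed 38.0-fold between its extreme libraries, and its log2 fold change of 0.45 had a 95% interval from -1.27 to 2.18.

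Of the ligands, Jag1 was the most abundant. Jag1 (chromosome 2, 137081451 to 137116520, minus strand) had 9290.1, 8216, 3040.0 and 8019 normalised counts in DMSO and 7167, 6232, 8008 and 3436 in DOX libraries. One library of each group was low, DMSO 15 and DOX 21, and the other 6 lay between 6232 and 9290.1. These were the libraries with Y-linked transcripts, and they also had the lowest summed tubule epithelium markers, 661 and 843 TPM against 1277 to 2869 in the others. The part of either in the Jag1 level was not tested, and in bulk RNA fewer epithelial cells and less RNA per cell cannot be told apart. The log2 fold change of Jag1 was -0.20 (95% interval -1.04 to 0.64), and -0.25 without DMSO 15 and DOX 21. It was -0.45 without DMSO 15 alone and 0.0015 without DOX 21 alone.

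The delta-like ligands ranged from no count to high counts. Dll1 (chromosome 17, 15367354 to 15376932, minus strand) had 1866, 2962, 25.1 and 0 normalised counts in DMSO and 599, 2787, 2464 and 260.4 in DOX libraries. Its 2 lowest libraries were both DMSO, yet DMSO 5 had the highest value of all, so the groups overlapped over nearly their whole range. Its log2 fold change of 0.33 had a 95% interval from -2.75 to 3.42, limma-voom put it at 3.17, and it was -0.39 without DMSO 20 and DOX 19. Dll4 (chromosome 2, 119325784 to 119335666, plus strand) had 1986, 1156, 360.2 and 0 normalised counts in DMSO and 619, 171, 539 and 151 in DOX libraries. DMSO 3 and DMSO 5 lay above all DOX libraries, DMSO 15 lay among them, and DMSO 20 had no count. The log2 fold change of Dll4 was -1.24 (95% interval -3.88 to 1.40), and -0.45 without DMSO 3, whereas limma-voom put it at 0.56.

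Jag2 (chromosome 12, 112907803 to 112929812, minus strand) was the least abundant member, with 116, 82.6, 11.04 and 0 normalised counts in DMSO and 119.7, 122, 0 and 54.6 in DOX libraries. Each group held 1 library without a count and at least 1 above 100, and the log2 fold change was 0.50 (95% interval -2.91 to 3.90). The zero counts of the Notch genes fell in DMSO 20 (Jag2, Dll1 and Dll4) and DOX 19 (Jag2). A count of 0 allows up to 0.0469 CPM (counts scaled to the library total) in DMSO 20 and 0.0399 CPM in DOX 19, a limit that covers counting error only.

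**Figure D2:**
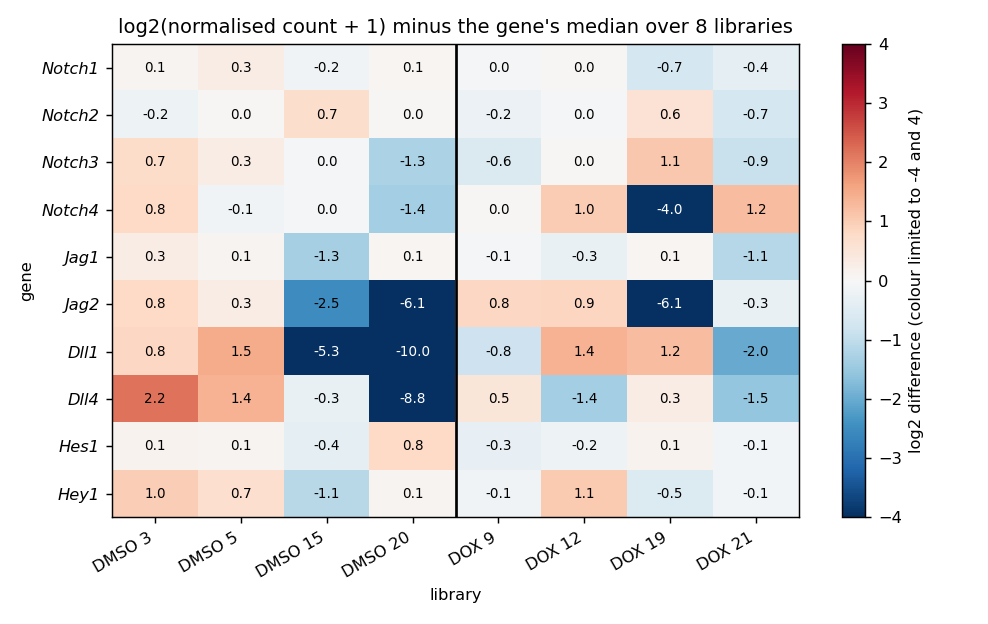
Log2(normalised count + 1) of the 10 Notch genes (rows) in the 8 libraries (columns), each minus the gene's median, with colours limited to 4 on either side and DMSO left of the black line. Jag2, Dll1 and Dll4 fall far below their medians in DMSO 20, Dll1 and Jag2 in DMSO 15, and Jag2 and Notch4 in DOX 19, and Jag1 lies below its median by over 1 in DMSO 15 and DOX 21.

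Both targets were detected in every library. Hes1 (chromosome 16, 30065357 to 30067796, plus strand), a transcriptional repressor and a direct Notch target, had 7239, 7203, 5039 and 11490.6 normalised counts in DMSO and 5335, 5732, 7309 and 6096 in DOX libraries. The DOX libraries lay within the DMSO range, which DMSO 15 and DMSO 20 set. DMSO 20, with no count of Dll1, Dll4 or Jag2, had the highest Hes1. The log2 fold change was -0.34 (95% interval -0.92 to 0.24). Hey1 (chromosome 3, 8663359 to 8667038, minus strand), a related repressor, had 2115, 1685, 493 and 1143 normalised counts in DMSO and 959, 2202, 731 and 987 in DOX libraries. Its lowest library was DMSO 15 and its highest DOX 12, and the log2 fold change of -0.16 had a 95% interval from -1.22 to 0.91. It turned to 0.14 without DMSO 3 and 0.0307 without DOX 19, and was -0.61 without DOX 12.

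Variation between libraries was compared as the SD of log2(normalised count + 1) over the 8 libraries. The median over 14057 genes with a mean of at least 50 normalised counts was 0.562, and 7 of the 10 Notch genes were above it. Notch1 (0.319), Hes1 (0.376) and Notch2 (0.451) were below. Jag1 (0.610), Hey1 (0.755) and Notch3 (0.797) were a little above, and Notch4 reached 1.69. Jag2 (3.02), Dll4 (3.41) and Dll1 (4.11) varied most, and 98.6% of genes varied less than Dll1. These are the genes with zero counts, in DMSO 20 and for Jag2 also in DOX 19, the libraries with the fewest detected genes. A zero count enters this scale as 0, so their SDs rest in part on those zeros.

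Levels between genes were compared by the deposited TPM, which corrects for transcript length. Hes1 was highest with a median of 110.2 TPM over the 8 libraries, followed by Jag1 (33.5), Hey1 (12.0), Dll1 (7.88), Notch2 (5.26), Notch1 (3.94), Dll4 (2.92), Notch3 (2.30), Notch4 (2.08) and Jag2 (0.437). Both targets and Jag1 had higher medians than every receptor. Neighbours in this order were compared within libraries as differences of log2(TPM + 0.1), by an exact two-sided sign-flip permutation test with Benjamini-Hochberg adjustment over 9 pairs. The pairs were taken from the order of medians in the same libraries, so these p-values are not independent of that order. Hes1 exceeded Jag1 by 2.02 in 8 of 8 libraries, Jag1 exceeded Hey1 by 1.11 in 8 of 8, and Notch4 exceeded Jag2 by 2.40 in 8 of 8 (exact permutation p = 0.0078 and adjusted p = 0.0234 for each), where 0.0078 is the smallest p that 8 libraries allow. The other 6 neighbouring pairs did not differ beyond their spread, from Hey1 over Dll1 (1.87, higher in 6 of 8 libraries, exact permutation test, adjusted p = 0.158) to Dll4 over Notch3 (0.05, 4 of 8, adjusted p = 0.945). Pairs that are not neighbours in the order were not tested.

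**Figure D3:**
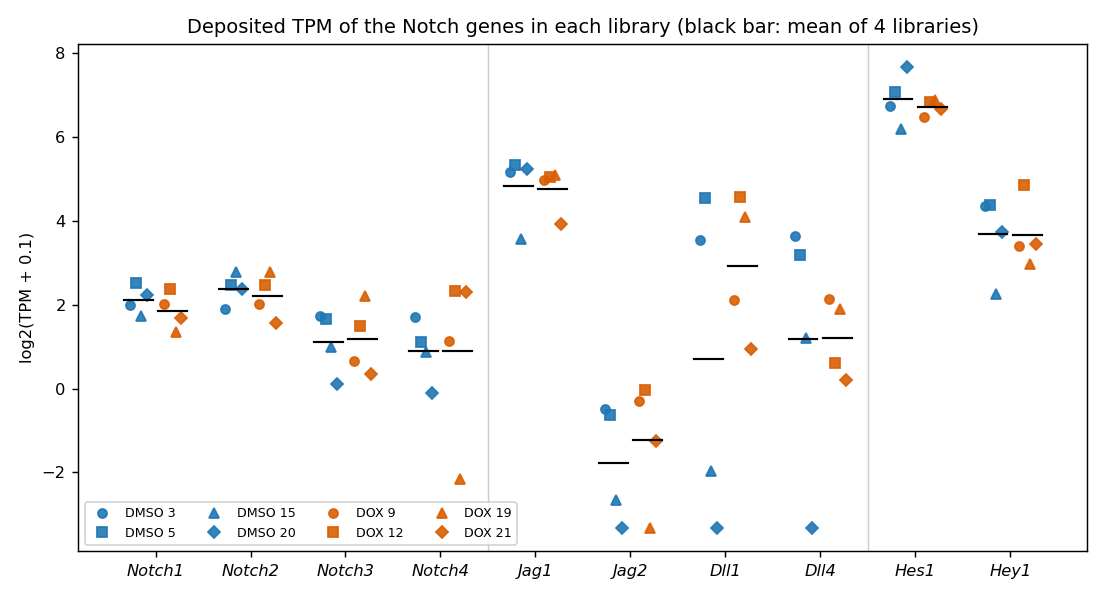
Deposited TPM of the 10 Notch genes on a log2(TPM + 0.1) axis, 1 point per library (blue DMSO, orange DOX) with black bars for the mean of 4 libraries. The DMSO and DOX points overlap in every gene, Hes1 and Jag1 lie highest, and the points at the bottom of the axis are the zero counts of Jag2, Dll1 and Dll4.

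The makeup of each class also differed between libraries. Jag1 gave 55.1% to 100% of the summed TPM of the 4 ligands, with 100% in DMSO 20, where it was the only one counted. Dll1 gave 0% to 40.1% and Dll4 0% to 20.3%. The ligands summed to 14.1 TPM in DMSO 15 and 18.2 TPM in DOX 21, and to between 37.4 and 73.3 TPM in the other libraries. The receptors stayed in a narrower range, 11.5 to 18.2 TPM in sum. Notch1 and Notch2 shared most of the receptor TPM in most libraries, and Notch4 gave from 0.894% in DOX 19 to 40.2% in DOX 21.

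**Figure D4:**
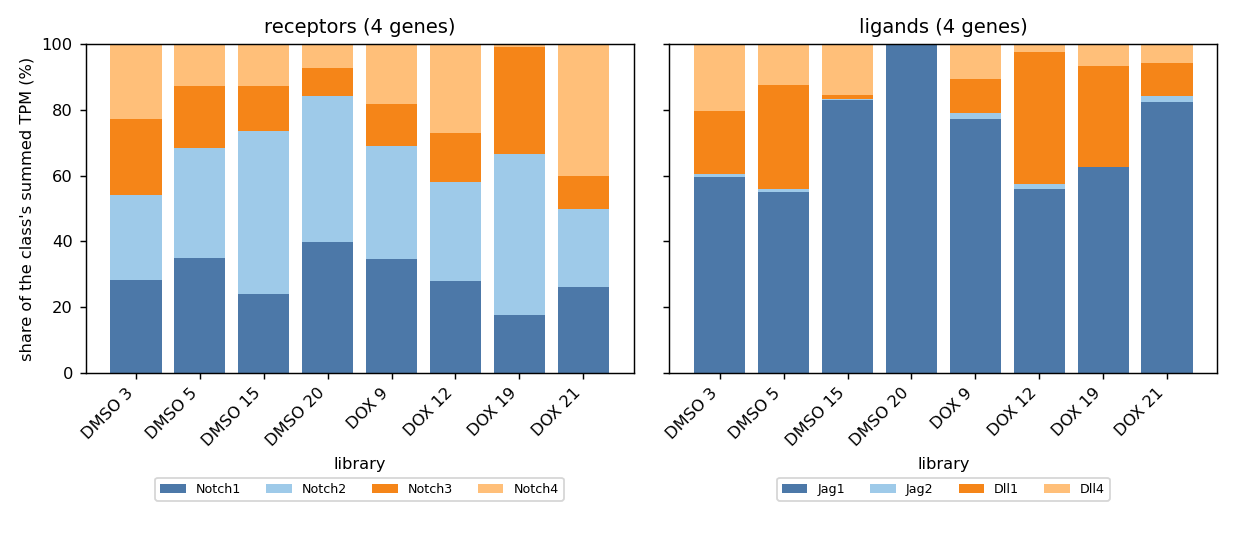
Share of each gene in the summed TPM (y axis, %) of the 4 receptors (left) and 4 ligands (right), 1 bar per library. Jag1 makes up the largest part of the ligands in all 8 libraries, from 55.1% to 100%, and Notch4 ranges from 0.894% to 40.2% of the receptors.

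Markers of other cell types were read beside the genes known from those cells. Of 8 endothelial markers, Emcn, Egfl7 and Flt1 made up most of the sum of 64.3 to 205 TPM, while Pecam1, Cdh5, Kdr, Tek and Tie1 did not exceed 0.698 TPM in any library. The endothelial sum was highest in DOX 12 and DOX 21 (205 and 201 TPM), the libraries with the highest Notch4 (4.92 and 4.82 TPM). That sum followed Emcn (142 and 160.0 TPM there), whereas Flt1 had its highest value of all in DOX 12 (20.8 TPM) and its lowest in DOX 21 (7.46 TPM). It was 91.0 TPM in DOX 19, where Notch4 was 0.124 TPM. Dll4 was highest in DMSO 3 and DMSO 5 (12.2 and 9.04 TPM), which also had the highest tubule epithelium sums (2869 and 2577 TPM), and lowest in DMSO 20, with no count and an epithelial sum of 1388 TPM, above those of 4 libraries that had Dll4. The 7 mural markers summed to 223 to 1658 TPM, highest in DMSO 15, where Acta2 alone gave 1212 TPM and Notch3 was 1.87 TPM, inside its range of 0.971 to 4.48 TPM. DOX 19, with the highest Notch3, had 525 TPM of mural markers, under the medians of DMSO (574 TPM) and DOX (565 TPM). Its Cspg4 was the highest of all (31.6 TPM), whereas Des (30.9 TPM), Mcam (16.0 TPM) and Myh11 (0.0877 TPM) were near their lowest. Pdgfrb, Rgs5 and Acta2 lay inside their ranges there. Summed macrophage markers (5 genes) were 17.2 to 31.8 TPM in DMSO and 0.0068 to 12.5 TPM in DOX libraries, and none of these genes was called. Different genes carried the sum, such as Ptprc in DMSO 5 (22.3 TPM), Lyz2 in DMSO 15 (13.3 TPM) and Cd68 in DMSO 20 (23.3 TPM). Read singly, each of these markers overlapped between the groups. Podocyte markers (5 genes) reached 252 TPM in DOX 21 and 26.6 to 91.2 TPM elsewhere. The remaining lists were fibroblasts and stroma (181 to 2452 TPM), principal cells (13.6 to 479 TPM), intercalated cells (0 to 10.6 TPM) and proximal tubule (5.89 to 23.7 TPM). Slc5a2 made up most of the proximal tubule sum, with Lrp2, Cubn and Slc34a1 at most 0.174 TPM. Where any intercalated marker was counted, Atp6v0d2 made up most of that sum, with Slc4a1 and Slc26a4 at most 0.124 TPM and Foxi1 at most 1.19 TPM. The part of any of these cell types in the levels of the Notch genes was not tested.

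**Figure D5:**
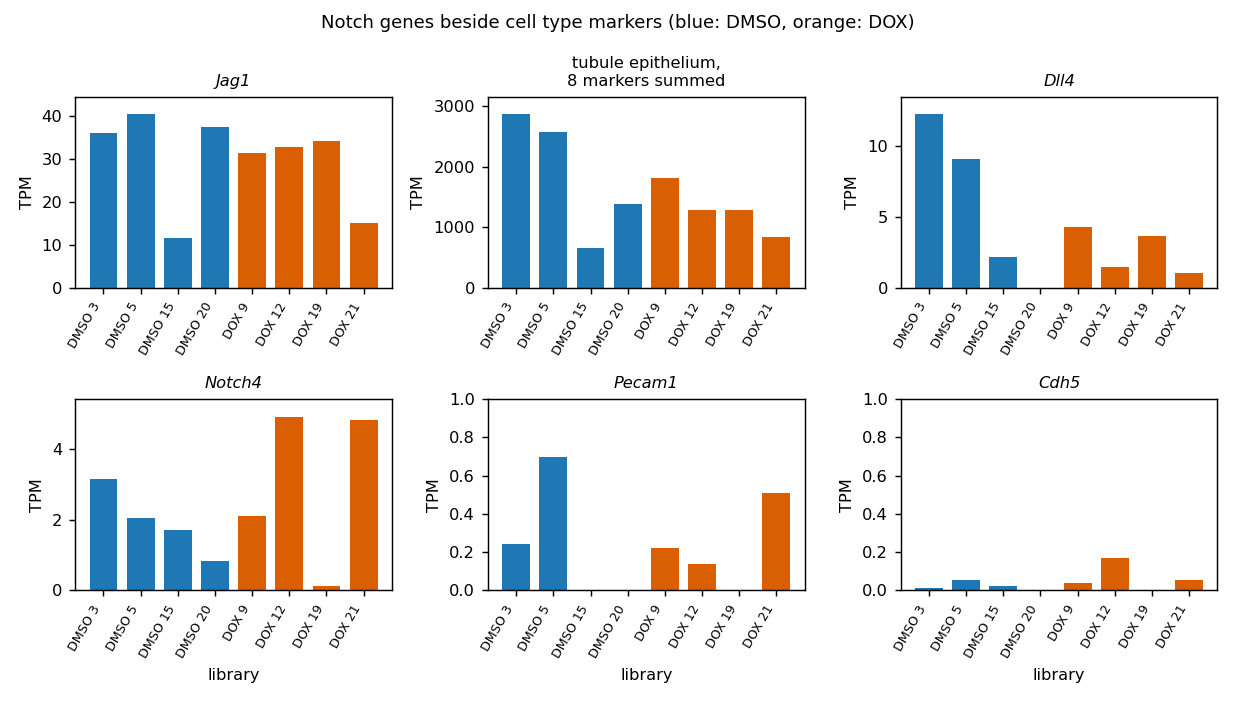
TPM of Jag1, the summed tubule epithelium markers, Dll4, Notch4, and the endothelial markers Pecam1 and Cdh5 in each library (blue DMSO, orange DOX; each panel has its own axis from 0). Jag1 and the epithelial sum are both lowest in DMSO 15 and DOX 21, and Pecam1 and Cdh5 stay under 1 TPM in all libraries. Not drawn are the endothelial markers Emcn (22.1 to 160.0 TPM), Egfl7 (29.6 to 47.2 TPM) and Flt1 (7.46 to 20.8 TPM), and the lower Kdr, Tek and Tie1.

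Position and counting bear on some of these values. Each Notch gene had 1 transcript in the files, so its count needed no summing over isoforms. The genes lie on 5 chromosomes, with Notch1, Jag1 and Dll4 on chromosome 2 and Notch3, Notch4 and Dll1 on chromosome 17. The library kit does not mark strand. In the GENCODE annotation, exons of Notch1, Notch3, Dll1 and Dll4 overlap genes of the opposite strand, by 1068 bases for Notch1 and 0610009E02Rik and 414 for Notch1 and Gm13568, by 488 bases for Notch3 and Gm17276, by 867 bases for Dll1 and A930024N18Rik and by 214 bases for Dll4 and Gm14207, and Notch2 shares 541 exonic bases with Gm42820 on its own strand. These overlaps take in all annotated isoforms, so the counted transcript may share fewer bases. From the counts alone, the source of a read there cannot be told. Apart from Gm14207, these overlapping genes had no count of their own under these symbols. Gm14207 was counted in these files, with 363, 272, 98 and 55 reads in DMSO 3, 5, 15 and 20 and 162, 57, 161 and 58 in DOX 9, 12, 19 and 21. Its highest libraries, DMSO 3 and DMSO 5, were those of Dll4, but in DMSO 20 it had 55 reads where Dll4 had none.

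Since Hes1 was the most abundant of the 10 genes and HES proteins are known to bind the N-box, the RefSeq promoter windows (GRCm38.p6, 250 bases before to 50 after the start) were searched for it. Windows were found for 8 of the 10 genes, all but Hes1 and Hey1. The N-box, searched as CACNAG on both strands, occurred in 5 of their 9 windows (Notch1, Notch2, Notch3, Dll4 and 1 of 2 for Dll1) and in 42.5% of all 32851 windows. The RBPJ core TGGGAA, also on both strands, occurred in none of the 9 and in 25.6% of all windows. The longer RBPJ motif GTGGGAA, which contains the core, was in 6.38% of all windows. A match is a run of letters and not a shown binding site. The 250 bases before the start are printed for Dll4 (chr2:119325534-119325783, plus strand), a ligand with widely varying counts, and Notch1 (chr2:26503823-26504072, minus strand), the steadiest of the 10 genes, 5′ to 3′ on the strand of the gene and with N-box matches in capitals.
Dll4: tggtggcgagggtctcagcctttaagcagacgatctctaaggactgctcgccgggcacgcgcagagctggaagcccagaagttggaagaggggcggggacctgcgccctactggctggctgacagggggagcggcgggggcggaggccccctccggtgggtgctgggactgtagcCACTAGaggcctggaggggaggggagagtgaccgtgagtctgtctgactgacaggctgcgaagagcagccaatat
Notch1: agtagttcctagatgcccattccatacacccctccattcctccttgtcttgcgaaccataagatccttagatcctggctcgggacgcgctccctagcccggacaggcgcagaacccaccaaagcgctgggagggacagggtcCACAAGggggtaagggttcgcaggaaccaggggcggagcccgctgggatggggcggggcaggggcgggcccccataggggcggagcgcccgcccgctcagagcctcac
The match of Dll4 starts 75 bases before its start site and that of Notch1 108 bases before. Notch1 had 2 further overlapping matches that cross its start site, which are not in the printed stretch.

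The other genes of the pathway were read from lists of 58 genes, all of them in the files. DESeq2 called 1 of 56 with an adjusted p (1 higher, 0 lower), and 2 of 58 had an unadjusted p under 0.05, beside 0.147% and 4.67% of all genes. edgeR and limma-voom called 0 and had 2 of 54 each at an unadjusted p under 0.05, beside 3.06% and 3.07% of all genes. The unadjusted counts are near these shares. The lists were chosen with earlier results of these data known, so the single call is not read as a result about the lists. The estimates were higher with DOX for 35 and lower for 21 genes, with a median log2 fold change of 0.09, beside -0.07 over all genes.

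The called gene was in the list of receptor cleavage (10 genes, 7 estimates higher and 3 lower). Psen2, a catalytic subunit of gamma-secretase, had 1828 to 2375 normalised counts in DMSO and 3431 to 9106 in DOX libraries, a log2 fold change of 1.45 (95% interval 0.76 to 2.15, DESeq2 adjusted p = 0.0309, edgeR adjusted p = 0.999). It was also not called by limma-voom (1.32), without DMSO 20 and DOX 19 (1.11), without DMSO 15 and DOX 21 (1.41), or without any 1 of DMSO 3, 5 or 20 or DOX 19 or 21 (1.16 to 1.52). Ncstn, another subunit, named after its values were seen, had groups that did not overlap (9225 to 13779 in DMSO, 14269 to 19306 in DOX) and a log2 fold change of 0.46, but a DESeq2 adjusted p of 0.868. Adam17, a protease that can cleave Notch receptors, was the most abundant gene of the list and had a log2 fold change of 0.06.

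In the remaining lists DESeq2 and edgeR called no gene, and no gene had an unadjusted p under 0.05. Among 3 other ligands, Dlk1, a non-canonical ligand, had 1104, 962, 407 and 0 normalised counts in DMSO and 1492, 5727, 604 and 1031 in DOX libraries, with a log2 fold change of 1.84 (95% interval -0.75 to 4.43). The high DOX value came from DOX 12 and the groups overlapped. Among 5 glycosylation genes, Lfng, the lunatic fringe glycosyltransferase that tunes which ligands a receptor answers, had a log2 fold change of -0.88 (95% interval -2.14 to 0.37), and -0.47 without DMSO 3. Poglut1, which adds O-glucose to Notch, was at 0.32, and at 0.15 without DMSO 20. In ligand endocytosis (4 genes), Neurl1b, a ubiquitin ligase, had the smallest unadjusted p, with a log2 fold change of -1.43 (95% interval -3.05 to 0.19), and Mib2, another one, 0.14.

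In the nuclear complex and co-repressors (14 genes, 8 estimates higher and 6 lower), the co-activator Maml1 had a log2 fold change of 0.70 (95% interval -0.09 to 1.504) and the histone deacetylase Hdac1 -0.18. For turnover and inhibitors (10 genes, 6 higher and 4 lower), the log2 fold changes were -0.65 for the ubiquitin ligase Dtx3l (95% interval -1.59 to 0.30) and 0.12 for Numb, an inhibitor of Notch. Of the 12 other targets, 10 had an adjusted p, with 8 estimates higher and 2 lower. Cdkn1a, a cell cycle inhibitor that several pathways induce, had 22947 to 28752 normalised counts in DMSO and 26158 to 55006 in DOX libraries, overlapping between groups, with a log2 fold change of 0.49 (95% interval -0.08 to 1.06), and 0.22 without DOX 9, its highest library.

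The genes whose pattern over the 8 libraries was nearest to that of a Notch gene were sought among the 11540 genes counted 10 times or more in each library. Likeness was the root mean square difference of log2(normalised count + 1) after centring each gene on its mean, for the 7 Notch genes that met that count. The nearest of so many genes lie close by their selection, and the distance grows with the SD of the Notch gene, so the values are a description only. Hes1 was nearest to Zbtb1 (0.0751) and Snapc5 (0.0937). For Notch1 they were Pik3c3 (0.117) and Ap4e1 (0.121), for Notch2 Sbf1 (0.179) and Nudt17 (0.217), and for Jag1 Ano1 and Dyrk3 (0.190 each). Hey1 was nearest to Slc40a1 (0.287) and Zfp184 (0.312), and Notch3 to Gorab (0.309) and Kctd1 (0.313). Notch4 was nearest to Pde8a (0.433) and Prickle2 (0.546). No other Notch gene was among these nearest genes.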

How the data were processed

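The authors prepared poly-A selected, strand-unmarked SMART-Seq v4 libraries and aligned the reads with STAR to mm10 on the BasePair platform. Submitters' processing notes also name featureCounts and DESeq2, and versions are not given in the sources used here. The deposited counts are whole reads per RefSeq transcript, the deposited FPKM values are those counts per kilobase of transcript and per library total, and the authors' TPM values sum to 1000000 in each library. Counts were summed by symbol and tested, TPM described levels, and FPKM was used only to derive transcript lengths. No library duplicated another, since chi-square per degree of freedom was 347 to 1086 over the 28 pairs.

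Groups were compared with the DESeq2 1.42.0 Wald test (R 4.3.3; median-of-ratios size factors, Cook's distance filter, independent filtering, Benjamini-Hochberg adjustment over all genes), the study's tool, with edgeR 4.0.16 (quasi-likelihood) and limma 3.58.1 (voom) beside it. Normalised counts are counts divided by DESeq2 size factors. The fits were tested on simulated data. Alternatives changed the test, scaling, filters, threshold, pseudocount or transcript summing, or left out libraries. Genes were named by rule: every member, each pathway gene called, and in each list the smallest unadjusted p and the highest mean TPM. The members, lists and DMSO 20 and DOX 19 as doubtful libraries were chosen with earlier results of these data known.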

Additional observations from a re-analysis of the deposited data

Results flagged for a closer look

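The 10 Notch genes, Pkd2 and the 12 pathway genes named by rule were each read in both groups of 4 libraries. In 5 of these 46 cases a gene had 1 library far from the other 3 on the log2(normalised count + 1) scale, as the gap to the nearest library over the group's range exceeded Dixon's 95% critical value for 4 samples. Chance gives about 1 in 20, or 2.3 of 46. Among the Notch genes these were the low Jag1 of DMSO 15 (ratio 0.868) and the absent Jag2 of DOX 19 (0.835). Among pathway genes they were the absent Dlk1 of DMSO 20 (0.858), the high Mib2 of DOX 19 (0.932) and the high Numb of DMSO 5 (0.943).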

How the results depend on the processing

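No paired analysis was run, because the labels name no pairs and the library numbers in the titles are not shared between DMSO and DOX. By chi-square per degree of freedom, the DOX library nearest to DMSO 3 was DOX 9 (547), and to DMSO 5 DOX 12 (520). For DMSO 15 it was DOX 21 (536), and for DMSO 20 DOX 19 (595). Whether these libraries share a preparation was not tested, and the unpaired tests would count such sharing as spread. The number of Notch genes called stayed at 0 of 10 under every alternative that was run. The number of all genes called was 25 with DESeq2, 48 without the Cook's distance filter, 16 with at least 10 counts in every library, 40 at an adjusted p of at most 0.1, 0 with edgeR and 0 with limma-voom, 51 without DMSO 20 and DOX 19, and 76 without DMSO 15 and DOX 21, an alternative chosen after seeing the data. Leaving out 1 library gave 14 (without DMSO 3) to 75 (without DMSO 15) calls, with 48 without DMSO 20 and 38 without DOX 21. The single other pathway gene called, Psen2, became 0 with edgeR, limma-voom and both pairs of libraries left out, and 0 or 1 with 1 library left out (0 without DMSO 3, 5 or 20 or DOX 19 or 21).

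The direction of the fold change held in 151 of 167 alternative values of the Notch genes and turned in 16. Some of the 151 could not turn, so this count overstates how steady the direction is. Leaving out the Cook's distance filter or independent filtering changes p-values only, and the estimates stay the same. With 1 transcript for each Notch gene, taking 1 transcript per gene changes only the scaling. With limma-voom the log2 fold change was -0.15 for Notch3, -0.0505 for Notch4 and 0.56 for Dll4, and for Dll1 it was 3.17 in place of 0.33. Without DMSO 20 and DOX 19 it was -0.76 for Notch3 and -0.39 for Dll1, and without DMSO 15 and DOX 21 it was 0.19 for Notch2 and -0.0325 for Adam17. With 1 library left out it ranged from -0.51 to 0.32 for Notch3, -0.13 to 1.28 for Dll1, -0.48 to 0.0143 for Notch2, -0.45 to 0.0015 for Jag1, -0.61 to 0.14 for Hey1, -0.0732 to 0.54 for Mib2 and -0.0889 to 0.41 for Adam17. Without a change of sign it moved by over 1.5 times for, among others, Hes1 (-0.0871 without DMSO 20), Jag2 (0.0878 without DMSO 20, 1.25 without DMSO 3), Notch4 (0.0543 without DOX 21, 0.87 without DMSO 3), Dll4 (-0.45 without DMSO 3), Dlk1 (0.75 without DOX 12) and Neurl1b (-0.74 without DMSO 20). The same holds for Notch1 (-0.20 without DOX 19), Pkd2 (-0.20), Poglut1 (0.15) and Dtx3l (-0.40) without DMSO 20, Lfng (-0.47) and Hdac1 (-0.0653) without DMSO 3, Maml1 (1.07 without DMSO 15), Numb (0.25 without DMSO 5) and Cdkn1a (0.22 without DOX 9). With at least 10 counts in every library, Jag2, Dll1 and Dll4 gave no value.

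The level differences Hes1 over Jag1, Jag1 over Hey1 and Notch4 over Jag2 were 1.99, 0.88 and 2.47 without DMSO 20 and DOX 19, and 1.80, 1.19 and 2.02 without DMSO 15 and DOX 21. Their adjusted p was 0.0938, where 6 libraries allow no exact permutation p under 0.03125. Dll1 over Notch2 was -0.49 in mean log2 TPM, although Dll1 has the higher median, and turned to 0.0923 with log2(TPM + 1), 0.0884 and 0.25 without these pairs, and -0.85 to 0.26 with 1 library left out. Hey1 over Dll1 was 1.15 with log2(TPM + 1) and 1.12 without DMSO 20, Notch1 over Dll4 0.33 and 0.11, and Notch4 over Jag2 1.18 with log2(TPM + 1). Dll4 over Notch3 ranged from -0.22 to 0.54 with 1 library left out, and Notch3 over Notch4 from -0.34 to 0.56, with -0.43 without DMSO 20 and DOX 19. The causes were not tested.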
